A study of Mus musculus with 6 samples.

Results

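The receptors for adrenaline, acetylcholine, dopamine, serotonin, glutamate, adenosine, extracellular nucleotides and prostaglandin E2 were examined in pancreatic islets, the hormone-secreting cell clusters of the pancreas. Members were the table rows whose symbol starts with Adra, Adrb, Chrm, Drd, Htr, Grm, Adora, P2ry or Ptger followed by a digit, which gave 57 genes of 23179 rows. Of these, 17 averaged 0.5 FPKM or more across the 6 libraries, and 16 of these are described one by one. FPKM are fragment counts scaled by transcript length and by a factor for each library, whose basis is not given here, so genes can be compared by level. Total RNA was sequenced from islets of C57BL/6J males, 10 to 14 weeks of age, which were either wild type (WT, 3 libraries) or Ffar3-/- (KO, 3 libraries), lacking a receptor of short-chain fatty acids. Both groups were untreated as far as the labels say, and each library held islets pooled from 2 pancreata. How the Ffar3 allele was made, and whether the WT mice were littermates, is not given in the sources used here.

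Nearly all of these receptors are G protein-coupled receptors with a shared fold of membrane-spanning helices, and they are grouped by the G protein they act on. Gs raises and Gi/o lowers cyclic AMP, while Gq releases calcium from internal stores. In beta cells, cyclic AMP and calcium both promote insulin release: noradrenaline acting on the alpha-2A adrenoceptor (Adra2a) stops it through Gi/o, and acetylcholine acting on the M3 muscarinic receptor (Chrm3) enhances it through Gq. Adenosine is formed outside cells from released ATP, and prostaglandin E2 is made by cyclooxygenases.

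The targeted gene was checked first. Ffar3 was at 4.69, 5.26 and 6.68 FPKM in WT replicates 1, 2 and 3. In KO it was listed at 0 in replicates 1 and 2, and replicate 3 had 0.105 FPKM. The labels of all 6 libraries thus matched this gene, although an exact two-sided permutation test on it alone cannot go below p = 0.1 with 3 against 3. Markers of several cell types differed between groups or between KO libraries. The summed level of 25 acinar genes, which encode digestive enzymes of the exocrine pancreas, was 28696 to 44959 FPKM in WT and 26774, 267950 and 570534 FPKM in KO replicates 1, 2 and 3. In each of the last 2 libraries 23 of the 25 genes lay above every WT value, and Amy2a5 and Amy2b were listed at 0. The summed level of 11 B and T cell genes was 7.1 to 8.16 FPKM in WT and 91.7, 177 and 17.7 FPKM in KO replicates 1, 2 and 3, with 11, 11 and 10 genes above every WT value. All 6 alpha cell markers lay below every WT value in each KO library (summed level 19834 to 24039 FPKM in WT, 7204 to 13581 in KO), and the sum of 4 delta cell markers was 5096 to 5375 FPKM in WT and 2581 to 4640 in KO. By the test described below, 0 of 25 acinar genes passed and 4 of 9 tested B and T cell genes rose. Of the alpha cell markers 2 of 6 fell (Irx1 and Irx2), while Gcg did not pass (limma adjusted p = 0.091). Of the delta cell markers 1 of 4 fell (Hhex). Of 9 tested beta cell markers, Mafa, Nkx6-1 and Ucn3 fell and the others did not pass. The insulin gene Ins2 had a listed value of 0 throughout, whereas Ins1 had values in KO replicates 2 and 3 alone (43721 and 48334 FPKM) and 0 elsewhere. A listed 0 of such genes can be a failed estimate. Of the duct markers 3 of 10 tested rose (Epcam, Cldn4 and Krt19), of the endothelial markers 1 of 8 rose (Cdh5) and 3 fell (Kdr, Emcn and Tie1), of the stellate and mural markers 2 of 6 fell (Acta2 and Pdgfrb), and of the Schwann and neural markers 3 of 4 fell, Tubb3 among them. Across all 12691 tested rows 19.3% rose and 18.4% fell by the same test, described below, and these shares stand beside each count of markers that rose or fell. In 55.1% of those rows the KO and WT libraries did not overlap, the share to set beside the 6 alpha cell markers. Counts near those shares are not a result about a cell type. The part of duct, endothelial, mural and neural cells in the receptor results was not tested. In whole islets, fewer cells of a type and less RNA per cell cannot be told apart. Estimated from the steps between the lowest values, 1 FPKM stood for fewest fragments in KO replicate 3, at 59.6% of WT replicate 1, against 89.4% to 119% in the other libraries, so low values are least precise there.

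Promoters were available from RefSeq (GRCm38.p6) for 12 of the 17 receptors. Those of Adora2b, which fell in KO, and Adora1, which rose, are shown with that of P2ry10, at 0.0837 to 0.142 FPKM in WT and 0.338 to 10.2 FPKM in KO, because they contrast in CpG dinucleotides, the C-G pairs that are dense in many promoters. Each is the run of 250 bases before the start site, 5′ to 3′ on the gene's strand, with CpG dinucleotides in capitals.
Adora2b (chr11:62248734-62248983, plus strand): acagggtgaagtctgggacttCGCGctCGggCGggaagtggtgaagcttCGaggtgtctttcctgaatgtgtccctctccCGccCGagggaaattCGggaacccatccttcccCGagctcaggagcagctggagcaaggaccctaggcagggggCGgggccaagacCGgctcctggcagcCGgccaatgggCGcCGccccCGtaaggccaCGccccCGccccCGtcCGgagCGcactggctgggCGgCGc
Adora1 (chr1:134235458-134235707, minus strand): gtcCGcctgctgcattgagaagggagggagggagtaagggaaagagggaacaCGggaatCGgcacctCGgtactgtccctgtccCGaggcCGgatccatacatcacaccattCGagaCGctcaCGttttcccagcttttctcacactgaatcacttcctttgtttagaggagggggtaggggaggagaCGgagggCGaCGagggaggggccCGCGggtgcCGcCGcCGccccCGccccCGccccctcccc
P2ry10 (chrX:107088242-107088491, plus strand): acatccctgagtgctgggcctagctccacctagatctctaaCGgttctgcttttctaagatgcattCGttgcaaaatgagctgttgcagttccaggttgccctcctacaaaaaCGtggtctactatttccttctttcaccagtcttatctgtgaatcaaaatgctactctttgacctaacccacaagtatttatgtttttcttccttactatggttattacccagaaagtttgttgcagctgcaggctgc
The adenosine receptor promoters held 22 (Adora2b) and 19 (Adora1) CpG dinucleotides and that of P2ry10 held 3. Over 32851 such windows in the genome the median was 6, and 14.8% held at least as many as Adora2b, 19.7% at least as many as Adora1 and 71% at least as many as P2ry10. Adra2a and P2ry1, which fell like Adora2b, held 22 and 20, close to the 19 of Adora1. The Adra2a window overlaps an exon of Adra2a itself, and the P2ry1 window an exon of the antisense gene Gm37035. Adora1 and P2ry10 each have a second start, whose windows held 18 and 5 and overlap exons of the same gene. The cyclic AMP response element TGACGTCA, searched on both strands, was in 0 of 17 windows of the 12 receptors and in 1.55% of all windows. Its core TGACG, which the full element contains, was in 2 of the 17 (Adra2a and the second start of P2ry10) and in 17.8% of all windows.

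The levels of the 17 receptors spanned from 71.1 FPKM for Adra2a to 0.58 for Htr3a (means over 6 libraries). Adra2a was followed by Adora2b at 24.1, Adora3 at 18.8, Chrm3 at 15.7, P2ry1 at 13.9, Ptger1 at 9.82 and Adora1 at 7.60 FPKM. All 4 adenosine receptors were among the 17, with 5 of 8 P2ry, 3 of 4 Ptger, 2 of 5 Chrm, 1 of 6 Adra and 1 of 14 Htr genes. The metabotropic glutamate receptors (8 Grm genes) and the dopamine receptors (Drd1a, Drd2, Drd3, Drd4 and Drd5) had no member at that level, and the highest mean of a dopamine receptor was 0.0791 FPKM for Drd2. Of the 40 genes below 0.5 FPKM, 8 were listed at 0 in every library. The members nearest to the 0.5 FPKM threshold were Htr3a inside it and Adrb1, the beta-1 adrenoceptor, outside it at 0.435 FPKM.

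**Figure D1:**
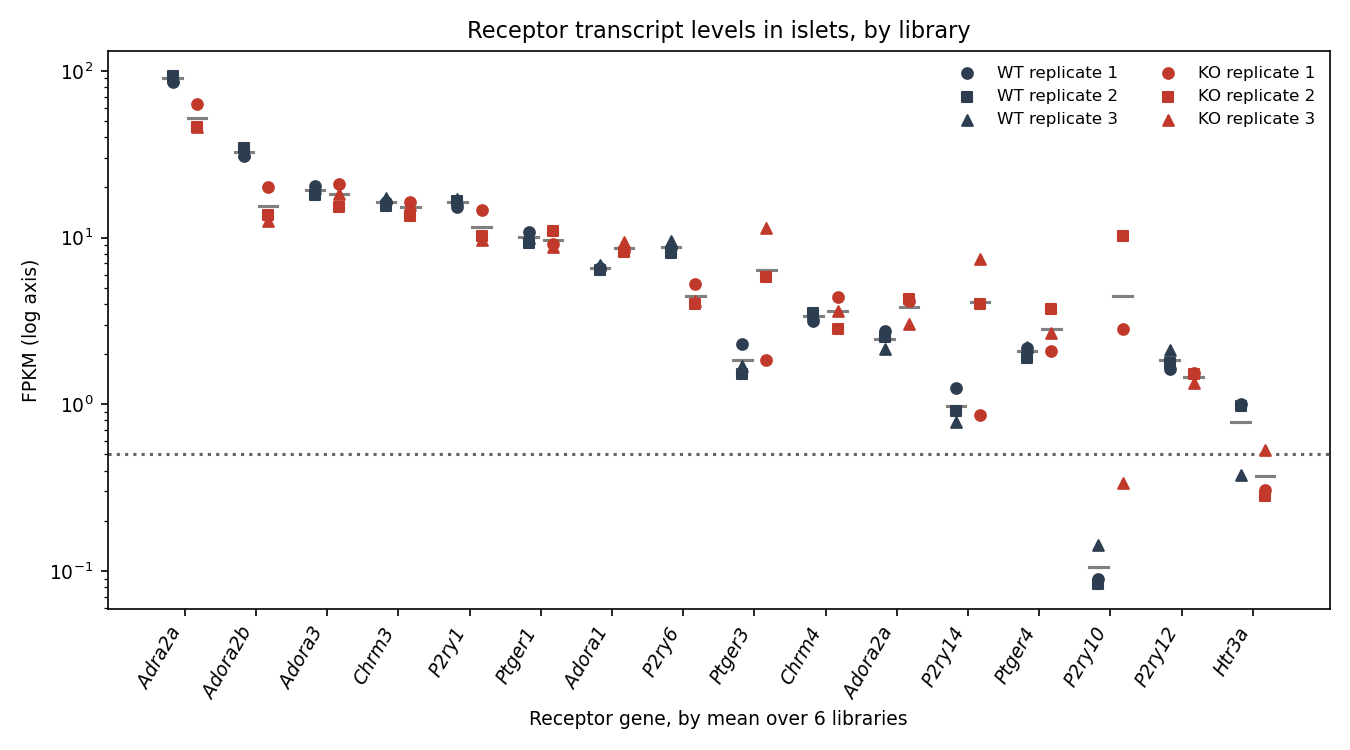
FPKM (log axis) of 16 receptor genes in each library, ordered by their mean over the 6 libraries. Dark symbols are WT and red symbols KO libraries, circles, squares and triangles are replicates 1, 2 and 3, short grey lines are group means of 3 libraries, and the dotted line is 0.5 FPKM. Adra2a, Adora2b, P2ry1 and P2ry6 show KO libraries below WT, while Ptger3, P2ry14 and P2ry10 spread widely between KO libraries.

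The question was whether transcripts of these receptors differed between KO and WT islets. The adrenergic receptor Adra2a, the adenosine receptor Adora2b and the nucleotide receptors P2ry1 and P2ry6 fell, and the adenosine receptors Adora1 and Adora2a rose. The other 11 did not pass the test. These 6 of 17 (35.3%) stand against 37.7% of all 12691 tested rows, so the share is near that of genes at large. By direction, 2 of 17 rose and 4 of 17 fell, against 19.3% and 18.4% of all rows. The median log2 difference was -0.06 over the 17 and -0.0064 over all rows. In KO replicate 1 alone against WT, 3 of the 17 were higher (Adora1, Adora2a and P2ry10) and 3 lower (Adra2a, Adora2b and P2ry6), against 14.5% and 9.63% of all rows (24.1% in either direction). In 8 of the 17 the KO and WT libraries did not overlap, against 55.1% of all rows. Tests were by limma on log2(FPKM + 1) over the 12691 rows averaging 0.5 FPKM or more, adjusted by Benjamini-Hochberg and read at 0.05. Log2 differences refer to that transformed scale and are therefore too small for low genes. Each p-value sets the difference between groups against the spread of libraries within groups. Since each library pooled 2 pancreata, the spread between single mice was not measured.

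**Figure D2:**
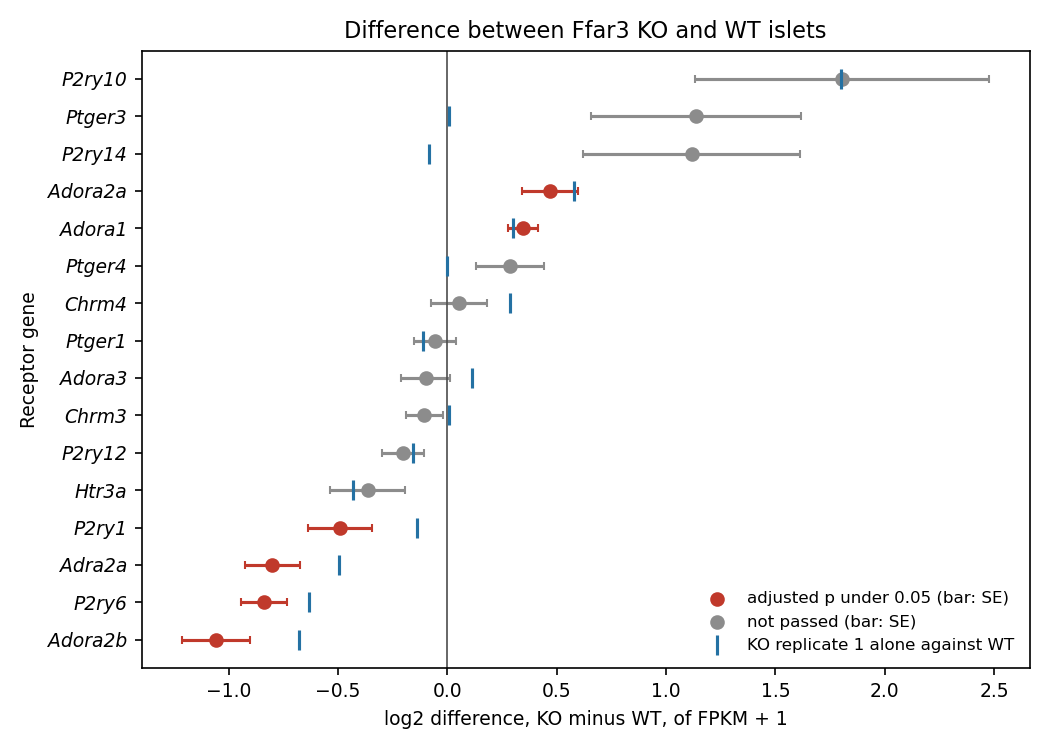
Log2 difference (KO minus WT) of FPKM + 1 for 16 receptors, from 3 libraries per group. Points are estimates with bars of 1 SE, red where the adjusted p was under 0.05, and blue ticks are KO replicate 1 alone against WT. Adora2b, P2ry6, Adra2a and P2ry1 lie to the left and Adora1 and Adora2a to the right, and for Ptger3 and P2ry14 the blue tick lies near 0 while the point lies above 1.

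Among the receptors of amines, the one with the highest level fell. Adra2a (chromosome 19, 54044151 to 54048982 on GRCm38, plus strand), the Gi/o-coupled receptor through which noradrenaline blocks insulin release, was at 85.9, 93 and 91.9 FPKM in WT replicates 1, 2 and 3 and at 63.7, 46.2 and 46.2 FPKM in the KO replicates in the same order. Every KO library was below every WT library, and KO replicate 1 was the nearest to WT. The mean fell from 90.3 ± 3.84 to 52 ± 10.1 FPKM (SD, n = 3 per group; limma log2 difference -0.80, SE 0.13, adjusted p = 0.0047). KO replicate 1 alone, whose acinar sum was not above WT, gave -0.50 (adjusted p = 0.0072, a single library assumed to vary like WT). Adra2a made up 40.9% to 43.2% of the summed FPKM of the 17 receptors in WT libraries and 29.6% to 35.9% in KO libraries. Alpha cell markers were also lower in each KO library, as were delta cell markers in sum. The beta cell markers Mafa (mean 207 FPKM in WT and 69.8 in KO), Nkx6-1 (118 and 74.5) and Ucn3 (340 and 188) fell too. The other tested beta cell markers did not pass. The part of alpha, delta and beta cells in the level of Adra2a was not tested.

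No other amine receptor passed. Chrm3 (chromosome 13, 9875486 to 10360847), the Gq-coupled M3 receptor for acetylcholine, was at 16.4, 15.4 and 17.2 FPKM in WT and 16.4, 13.4 and 15.7 in KO, with overlapping groups (log2 difference -0.10, limma adjusted p = 0.35). Chrm4, the Gi/o-coupled M4 receptor, was at 3.18, 3.54 and 3.49 FPKM in WT and 4.37, 2.81 and 3.64 in KO (log2 difference 0.05, adjusted p = 0.76 in limma). Its KO libraries lay on both sides of the WT range. Htr3a, which encodes a serotonin-gated ion channel and is the one receptor here that acts through no G protein, was at 1, 0.977 and 0.379 FPKM in WT and 0.307, 0.28 and 0.532 in KO (log2 difference -0.36, limma adjusted p = 0.13). WT replicate 3 lay among the KO libraries, and without it Htr3a passed (-0.54, adjusted p = 0.041).

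Of the 4 adenosine receptors, Adora2b fell, Adora1 and Adora2a rose and Adora3 did not pass. Adora2b (chromosome 11, 62248984 to 62266453, plus strand), the low-affinity Gs-coupled receptor whose promoter is printed above, was at 30.8, 34.4 and 32.8 FPKM in WT and 20, 13.7 and 12.6 FPKM in KO. No KO library reached the WT range, and KO replicate 1 was again the nearest to it. The mean fell to 47.4% of WT, from 32.7 ± 1.8 to 15.5 ± 4 FPKM (SD, n = 3 per group; limma log2 difference -1.06, SE 0.16, adjusted p = 0.0038), the largest fall of the 17 on the log2 scale. In KO replicate 1 alone it was -0.68 (adjusted p = 0.0044).

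Adora1 (chromosome 1, 134199223 to 134235431, minus strand), the high-affinity Gi/o-coupled receptor, was at 6.52, 6.39 and 6.8 FPKM in WT and 8.32, 8.24 and 9.36 FPKM in KO. All KO libraries were above all WT libraries and lay close together. The mean rose from 6.57 ± 0.209 to 8.64 ± 0.626 FPKM (SD, 3 libraries a group; log2 difference 0.35, SE 0.07, adjusted p = 0.0098 in limma), and to a like degree in KO replicate 1 alone (0.30, adjusted p = 0.046). Mybph, a gene on the opposite strand whose exons overlap Adora1, was at 0 to 0.0572 FPKM, so few fragments were assigned to it.

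Adora2a (chromosome 10, 75316877 to 75334784, plus strand), the high-affinity Gs-coupled receptor, was at 2.75, 2.53 and 2.14 FPKM in WT and 4.17, 4.28 and 3.03 FPKM in KO. The groups did not overlap, and KO replicate 3 was the nearest to WT. The KO libraries had the same order as the B and T cell sum, though replicates 1 and 2 were closer together. The part of these cells in the level of Adora2a was not tested. The mean rose from 2.47 ± 0.31 to 3.82 ± 0.695 FPKM (SD, 3 libraries a group; log2 difference 0.47, SE 0.13, limma adjusted p = 0.028). This call was lost when WT replicate 1, 2 or 3 or KO replicate 1 or 2 was left out (adjusted p of 0.0595, 0.073, 0.103, 0.054 and 0.082, with log2 differences between 0.40 and 0.53). Adora3, a Gi/o-coupled receptor, was at 20.4, 18.1 and 19.8 FPKM in WT and 21, 15.3 and 18.3 in KO (log2 difference -0.10, adjusted p = 0.5). Exons of Tmigd3, a gene not analysed here, overlap those of Adora3 on the same strand, so the level of Adora3 is uncertain.

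The makeup of the adenosine receptor transcripts therefore differed in every KO library. Adora2b took 50.9%, 56% and 53.3% of the summed FPKM of the 4 genes in WT replicates 1, 2 and 3 and 37.4%, 33.1% and 29.2% in KO replicates 1, 2 and 3. Adora1 took 10.4% to 11.1% in WT and 15.5% to 21.6% in KO. The ratio of Adora2b to Adora2a, the other Gs-coupled member, was 11.2 to 15.3 in WT and 3.2 to 4.81 in KO, with no overlap. These shares follow from the values above and are a description, with no test of their own. Adora3, whose level is uncertain, is part of each sum of the 4 genes.

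**Figure D3:**
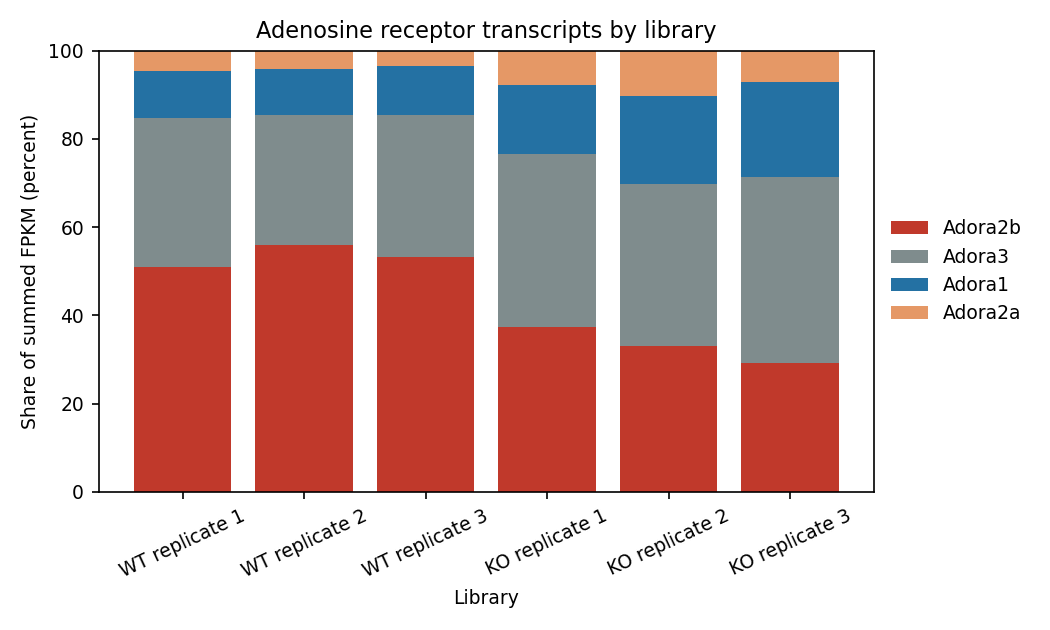
Share (percent) of the summed FPKM of the 4 adenosine receptor genes taken by each gene, 1 stacked bar per library. Adora2b is over 50% in the WT libraries and 29.2% to 37.4% in the KO libraries, and the shares of Adora1 and Adora2a are larger in each KO library than in any WT library.

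Of the receptors for extracellular nucleotides, P2ry6 and P2ry1 fell. P2ry6 (chromosome 7, 100937630 to 100974649, minus strand, 70.1 Mb from Ffar3 on the same chromosome), a Gq-coupled receptor of UDP, was at 8.61, 8.11 and 9.48 FPKM in WT and 5.26, 4 and 4.14 FPKM in KO. The groups were well apart, and the mean fell from 8.73 ± 0.694 to 4.47 ± 0.692 FPKM (SD, n = 3 per group; limma log2 difference -0.84, SE 0.10, adjusted p = 0.0021). In KO replicate 1 alone it was -0.63 (adjusted p = 0.012). P2ry6 is also expressed by macrophages. Of 7 tested macrophage markers C1qa fell and the others did not pass, where 18.4% of all tested rows fell. The 9 markers of the list had a summed level of 87.2 to 102 FPKM in WT and 116, 179 and 65.6 FPKM in KO replicates 1, 2 and 3, and without Lyz2, which took up most of the excess, 77.7 to 91.5 FPKM in WT and 82.7, 84.3 and 55.4 FPKM in KO. C1qa and Emr1 lay below every WT value in each KO library, while Cd68 and Itgam lay above every WT value in each. The part of macrophages in the level of P2ry6 was not tested.

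P2ry1 (chromosome 3, 61002795 to 61008982, plus strand), a Gq-coupled receptor of ADP, was at 15.3, 16.7 and 17 FPKM in WT and 14.7, 10.2 and 9.64 FPKM in KO. KO replicate 1 lay just under the WT range and the other KO libraries well under it. The mean fell from 16.3 ± 0.911 to 11.5 ± 2.77 FPKM (SD, 3 libraries a group; log2 difference -0.49, SE 0.15, adjusted p = 0.036 in limma). The call was lost without WT replicate 1, 2 or 3 or KO replicate 2 or 3 (adjusted p of 0.081, 0.101, 0.115, 0.105 and 0.082), with the replicate number as a block (0.065), with the acinar level added to the fit (-0.22, adjusted p = 0.086) and in KO replicate 1 alone (-0.14, adjusted p = 0.25). The size of the fall thus rested on KO replicates 2 and 3. Those libraries had high acinar transcripts and also the lowest sums of alpha cell markers (9280 and 7204 FPKM) and delta cell markers (2737 and 2581 FPKM). A fit with the acinar level takes up any difference confined to them, whatever its cause. The part of these cell types in the level of P2ry1 was not tested. Gm37035, an antisense gene not analysed here, shares exon positions with P2ry1.

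P2ry14, P2ry10 and P2ry12 did not pass. P2ry14, a Gi/o-coupled receptor of UDP-glucose, was at 1.25, 0.916 and 0.782 FPKM in WT and 0.859, 3.98 and 7.45 FPKM in KO (log2 difference 1.12, SE 0.50, limma adjusted p = 0.11). KO replicate 1 lay within the WT range, and KO replicates 2 and 3 were 4.05 and 7.59 times the WT mean. Without KO replicate 1 P2ry14 passed (1.72, adjusted p = 0.0023). The level in KO replicate 3 was 1.87 times that in KO replicate 2, and the acinar sum was 2.13 times. From KO replicate 1 to KO replicate 2 the ratios were less alike, at 4.63 for P2ry14 and 10.0 for the acinar sum. P2ry14 lies inside Med12l on the opposite strand, which was at 1.58 to 2.04 FPKM in all 6 libraries.

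P2ry10 (chromosome X, 107088492 to 107104974, plus strand), a receptor of lysophosphatidylserine found on lymphocytes, was at 0.09, 0.0837 and 0.142 FPKM in WT and 2.84, 10.2 and 0.338 FPKM in KO. Every KO library was above every WT library, but KO replicate 2 was 30.1 times KO replicate 3. The log2 difference was 1.80 (SE 0.67) and did not pass (limma adjusted p = 0.072). It passed at a pseudocount of 0.1 FPKM (3.54, adjusted p = 0.03), without KO replicate 3 (2.57, adjusted p = 0.0076) and in KO replicate 1 alone (1.80, adjusted p = 0.00075). The B and T cell sum had the same order of KO libraries. The part of these cells in the level of P2ry10 was not tested. Its near copy P2ry10b, listed as A630033H20Rik, was at 0.0433 to 0.463 FPKM in all libraries. P2ry12, the Gi/o-coupled ADP receptor of platelets and microglia, ranged from 1.63 to 2.11 FPKM in WT and from 1.34 to 1.54 in KO, with no overlap (-0.20, adjusted p = 0.14). Its exons overlap those of Med12l on the opposite strand, which was at a like level, so the value of P2ry12 is uncertain.

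**Figure D4:**
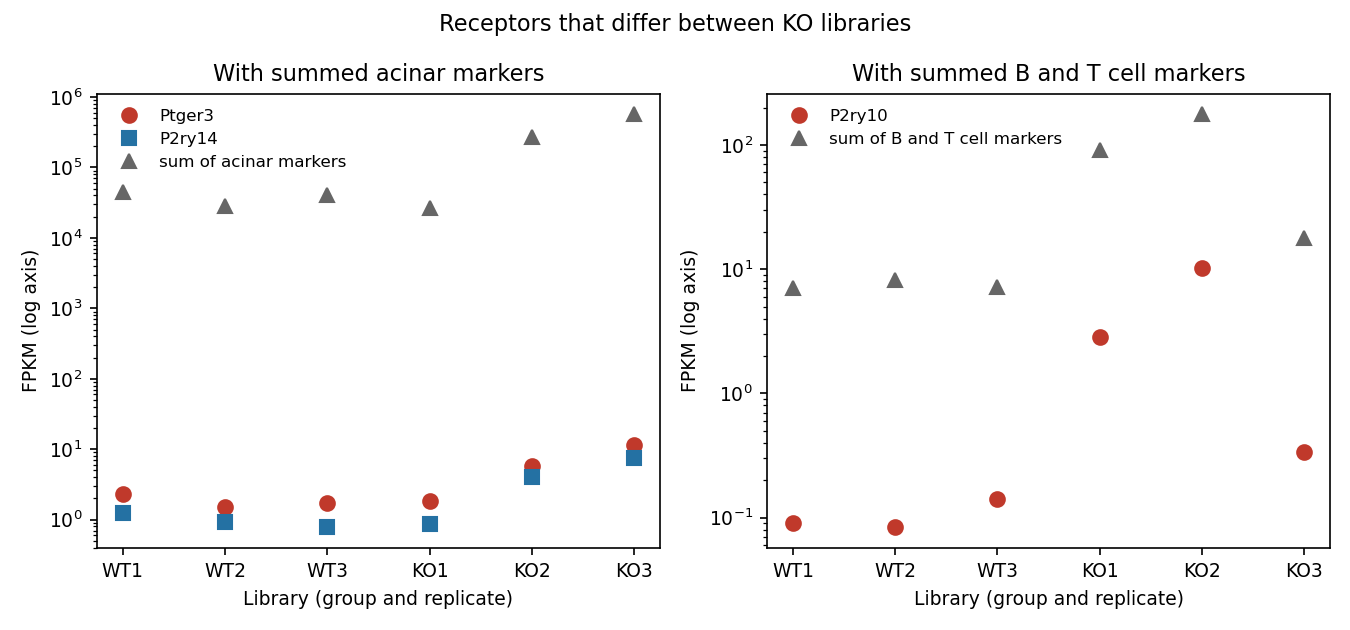
FPKM (log axis) by library of Ptger3 and P2ry14 with the sum of 25 acinar markers (left panel), and of P2ry10 with the sum of 11 B and T cell markers (right panel). KO replicates 2 and 3 are high in the left panel while KO replicate 1 is near WT, and in the right panel the KO libraries have the order replicate 2, replicate 1, replicate 3 for both quantities.

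No prostaglandin E2 receptor passed the test. Ptger3 (chromosome 3, 157566892 to 157645888, plus strand), the Gi/o-coupled EP3 receptor, was at 2.31, 1.51 and 1.7 FPKM in WT and 1.84, 5.76 and 11.5 FPKM in KO. KO replicate 1 was at the WT mean of 1.84 FPKM, and KO replicates 2 and 3 were 3.13 and 6.22 times that mean. The log2 difference was 1.14 (SE 0.48, limma adjusted p = 0.1), 0.01 in KO replicate 1 alone (adjusted p = 0.97), and 1.70 (adjusted p = 0.0036) without KO replicate 1. KO replicate 3 was 1.99 times KO replicate 2, which was 3.13 times KO replicate 1. The acinar sum was high in the same libraries. With the acinar level (mean log2 of FPKM + 1) added to the limma fit, the log2 difference was 0.17 for Ptger3 (adjusted p = 0.41) and 0.12 for P2ry14 (adjusted p = 0.54). That level was 11.2 and 12.2 in KO replicates 2 and 3 and 8.48 to 9.04 in the other libraries. Such a fit takes up any difference confined to KO replicates 2 and 3, whatever its cause. The part of acinar cells in the levels of Ptger3 and P2ry14 was not tested.

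Ptger1, the EP1 receptor that raises calcium, was at 10.8, 9.25 and 10 FPKM in WT and 9.18, 10.9 and 8.77 in KO, with overlapping groups (log2 difference -0.06, limma adjusted p = 0.65). Its level is uncertain, since the strand setting is not given in the sources used here. Ptger4, the Gs-coupled EP4 receptor, ranged from 1.9 to 2.22 FPKM in WT and from 2.08 to 3.73 in KO (0.29, adjusted p = 0.18). It passed without KO replicate 1 (0.43, adjusted p = 0.035). Its exons overlap those of Ttc33 on the opposite strand, which was at 15.8 to 21.5 FPKM.

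Grouped by G protein, the calls did not fall into one class. Of the Gi/o-coupled receptors reported, 1 of 7 rose (Adora1) and 1 fell (Adra2a). Of the Gq-coupled receptors, 2 of 4 fell (P2ry1 and P2ry6), and of the Gs-coupled receptors 1 of 4 rose (Adora2a) and 1 fell (Adora2b). Across all tested rows 37.7% were called. The summed FPKM of the Gs-coupled receptors was 36.7 to 39.5 in WT and 19.3 to 27 in KO, that of the Gq-coupled receptors 49.4 to 53.7 and 38.2 to 45.5, and that of the Gi/o-coupled receptors 121 to 127 and 83.7 to 102. Each sum was lower in every KO library than in any WT library, and Adora2b, P2ry1 and Adra2a, in that order of sums, had the largest falls in FPKM. Without Adra2a the Gi/o sum was 32.2 to 35.3 FPKM in WT and 37.6 to 51.5 in KO, and without Adora2b the Gs sum was 5.08 to 5.89 in WT and 6.69 to 9.36 in KO, both higher in every KO library. That Gi/o sum holds Ptger3 and P2ry14, which did not pass and were high in KO replicates 2 and 3 alone. Ptger3 was at 5.76 and 11.5 FPKM there and P2ry14 at 3.98 and 7.45. The sum is therefore no sign that the other Gi/o-coupled receptors rose. Without P2ry1 the Gq sum was 32.8 to 36.7 FPKM in WT and 28.3 to 30.8 in KO, still lower in every KO library.

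Genes that make, release or clear the ligands were counted from lists that were chosen for the pathways, and the share of all tested rows to set beside each count was 19.3% higher and 18.4% lower. For serotonin and catecholamines, 4 of 7 tested genes fell and none rose, with a median log2 difference of -0.25. Th, the rate-limiting enzyme of catecholamine synthesis, fell from 26.8 ± 2.62 to 17.7 ± 2.06 FPKM (SD, n = 3 per group; limma log2 difference -0.57, adjusted p = 0.0069). Ddc, which forms dopamine and serotonin from their precursors, fell from 198 ± 11 to 141 ± 20 FPKM. Maob, an enzyme of amine breakdown, fell from 79.1 ± 1.92 to 62.3 ± 6.1 FPKM. Without WT replicate 1 the adjusted p was 0.0605 for Ddc and 0.0637 for Maob, and without WT replicate 3 it was 0.0564 and 0.0590. Of the acetylcholine genes, 1 of 5 was tested: Ache, the esterase that breaks acetylcholine down, fell from 6.38 ± 0.94 to 3.6 ± 1.31 FPKM (log2 difference -0.71, limma adjusted p = 0.032). It did not pass without WT replicate 1, 2 or 3 or KO replicate 2 or 3 (adjusted p of 0.112, 0.085, 0.064, 0.084 and 0.053).

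For extracellular ATP and adenosine, 3 of 10 tested genes rose and 1 fell, with a median of 0.24. Entpd1, the ectoenzyme CD39 that degrades ATP and ADP, was at 2.35, 2.05 and 2.35 FPKM in WT and 4.69, 5.83 and 6.09 FPKM in KO, and Enpp1, another nucleotide-degrading ectoenzyme, was at 0.197, 0.391 and 0.346 and at 1.54, 1.52 and 2.13 FPKM. Both rose, with all KO libraries above WT (limma adjusted p of 0.0012 and 0.0018), and both passed in KO replicate 1 alone (log2 differences 0.81 and 0.96). Ada, which converts adenosine to inosine, rose from 1.09 ± 0.0967 to 1.87 ± 0.368 FPKM (0.45, adjusted p = 0.023) and Panx2, a pannexin, fell from 1.92 ± 0.0514 to 1.38 ± 0.201 FPKM (-0.30, adjusted p = 0.043). Ada did not pass without WT replicate 1, 2 or 3 or KO replicate 2 (adjusted p of 0.085, 0.067, 0.061 and 0.055), nor Panx2 without WT replicate 1, 2 or 3 or KO replicate 2 or 3 (0.132, 0.105, 0.109, 0.077 and 0.087). Nt5e, the ectoenzyme CD73 that forms adenosine from AMP, had too low a mean to be tested and was named after its values were seen: it was at 0.0406 to 0.0646 FPKM in WT and 0.564, 0.856 and 0.178 FPKM in KO. Its KO libraries had the same order as the B and T cell sum, and the part of these cells was not tested.

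For prostaglandins, 1 of 8 tested genes rose and none fell, with a median of -0.03. It was Slco2a1, the transporter that takes prostaglandins up, at 7.31, 7.93 and 6.47 FPKM in WT and 10.8, 10.9 and 11.3 FPKM in KO (log2 difference 0.55, limma adjusted p = 0.0033). The 3 KO libraries were close together and above WT. For glutamate, 3 of 6 rose and none fell, with a median of 0.40: the neutral amino acid transporter Slc1a4 (6.81 ± 0.717 to 14.5 ± 0.502 FPKM), glutamate dehydrogenase Glud1 (45.1 ± 3.19 to 57.2 ± 2.16 FPKM) and the glutamate transporter Slc1a1 (0.42 ± 0.0106 to 0.948 ± 0.0862 FPKM). Their adjusted p in limma was 0.00061, 0.0095 and 0.01. Slc1a4 carries neutral amino acids rather than glutamate but stays in the count.

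Receptors that bind the same or related ligands but have other names were also counted, and 1 of 12 tested rose and 4 fell, with a median of -0.26. Taar1, a Gs-coupled receptor of trace amines, was at 7.98, 9.72 and 9.42 FPKM in WT and 5.59, 4.21 and 3.67 FPKM in KO (log2 difference -0.88, SE 0.14, limma adjusted p = 0.0046). All KO libraries were below WT. The ionotropic glutamate receptor subunit genes Grik5 (12.4 ± 0.182 to 9.24 ± 0.85 FPKM) and Grin2c (3.65 ± 0.481 to 2.54 ± 0.174 FPKM) and the thromboxane receptor Tbxa2r (0.974 ± 0.215 to 0.329 ± 0.139 FPKM) fell. The ATP-gated channel P2rx4 rose from 14.9 ± 0.694 to 19.6 ± 1.66 FPKM (SD, n = 3 per group; 0.37, limma adjusted p = 0.0098). Grin2c was named after its values were seen, to complete the count. When WT replicate 3 was left out Tbxa2r had an adjusted p of 0.0575, and Grin2c had 0.0582 without WT replicate 1 and 0.0587 without WT replicate 2.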

How the data were processed

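Deposited FPKM values of 6 islet libraries were used (3 WT, 3 KO, grouped by sample title). The submitters' processing notes name TopHat2 2.0.8b, Cuffdiff 2.1.1 and the build mm10. No file names the unit, and FPKM by the authors was inferred from Cuffdiff and from decimals whose library sums ranged from 416935 to 1056344. The sources used here do not give annotation, strand setting or library scaling. Total depth is unknown. Although those sums differed, the median ratio of a gene to its mean over the 6 libraries was 0.990 to 1.005 in every library. A typical gene thus had a like level in each. A gene's FPKM depends on the scaling and can move with the rest of its library, and overlapping genes share fragments by estimate.

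The 12691 rows averaging 0.5 FPKM or more were log2 transformed after adding 1 and tested with limma 3.58.1 in R 4.3.3 (eBayes with trend; genotype as the single factor; 4 residual degrees of freedom; two-sided). P-values were adjusted by Benjamini-Hochberg over those rows, at a threshold of 0.05, and the script was tested on simulated data. Receptors, pathway lists, markers and alternatives were chosen with earlier results of these data known. Of the 17 receptors 16 are named, those that passed or averaged 3 FPKM or more with each library's value, and up to 4 passing genes per pathway list by smallest p. A few genes, 1 receptor among them, are not reported here but stay in the counts. Lists were matched by symbol or, for 3 symbols, by RefSeq synonym.

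Positions and exon overlaps came from GENCODE M21 (GRCm38, the assembly that mm10 denotes). Alternatives were a pseudocount of 0.1, no filter, a mean of at least 1 FPKM, 2 rescalings, the replicate number as a block, the acinar level as a covariate, a robust prior, KO replicate 1 alone and each library left out. Python 3.11.15, pandas 2.3.3, SciPy 1.17.1 and matplotlib 3.10.9 were used.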

Additional observations from a re-analysis of the deposited data

How the results depend on the processing

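Adra2a, Adora2b, P2ry6 and Adora1 kept their direction and passed in all 15 alternatives, Adora2a passed in 8 of 15 and P2ry1 in 5 of 15. The count of receptors called higher was 2, and 1 with no filter on low values or with equal sums outside acinar and insulin rows. Leaving out 1 library gave 1 to 4 higher, with 4 without KO replicate 1, where Adora1, Ptger3, P2ry14 and Ptger4 passed. The count called lower was 4 and was 3 or 4 in every alternative. The count over all rows was 4779, but 2836 with the acinar level as a covariate and 3064 in KO replicate 1 alone, and 2413 (without WT replicate 1; 2427 without WT replicate 3) to 5969 (without KO replicate 1) when 1 library was left out. With the replicate number as a block, 2 receptors were higher and 3 lower, and P2ry1 was the receptor whose call changed (adjusted p = 0.065). Same-numbered WT and KO libraries did not deviate together (correlations of -0.20, -0.081 and 0.023), so the numbers were not taken as pairs. Some receptors that had not passed changed direction: Adora3 from -0.10 to 0.024 (acinar covariate), and in KO replicate 1 alone Adora3 to 0.11, Chrm3 to 0.0062, P2ry14 to -0.085 and Ptger4 to -0.0032. With 1 library left out, Adora3 ranged from -0.20 (without KO replicate 1) to 0.015 (without KO replicate 2), Ptger1 from -0.14 (without KO replicate 2) to 0.0012 (without KO replicate 3) and Chrm4 from -0.065 (without KO replicate 1) to 0.18 (without KO replicate 2). The causes were not tested. Ffar3 stayed lower in every alternative run. Total depth is unknown, and a difference that did not pass is not shown to be absent.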

Other observations

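Some transcripts known from parasympathetic neurons, chosen for this pattern after their values were seen, had an order of libraries like that of the serotonin-gated channel gene Htr3a, which was at 1, 0.977 and 0.379 FPKM in WT replicates 1, 2 and 3 and 0.307, 0.28 and 0.532 in KO replicates 1, 2 and 3. The vesicular acetylcholine transporter Slc18a3 was at 0.779, 0.773 and 0.159 FPKM in WT and 0.223, 0.353 and 0.587 in KO. The choline transporter Slc5a7 was at 0.513, 0.593 and 0.119 FPKM in WT and 0.158, 0.162 and 0.275 in KO. WT replicates 1 and 2 were the highest for these genes, and WT replicate 3 was the lowest of the 6 libraries for both transporters. The nicotinic receptor subunit gene Chrna3 was at 0.588, 0.654 and 0.129 FPKM in WT and 0.21, 0.199 and 0.524 in KO, and the ATP-gated channel gene P2rx2 at 0.477, 0.443 and 0.0595 and at 0.0664, 0.0873 and 0.188. In both, WT replicate 3 was again the lowest. Means below 0.5 FPKM kept these 4 genes other than Htr3a out of the test, and no cause was tested. Other neural genes did not have this order: Tubb3 was at 77.4, 48.4 and 60.5 FPKM in WT and 23.2 to 27.7 in KO, and Elavl4 was at 6.12, 7.58 and 6.81 FPKM in WT and 4.78 to 6.47 in KO. Nor did the other acetylcholine genes counted above. Ache was at 7.36, 6.31 and 5.48 FPKM in WT and 5.01, 3.37 and 2.42 in KO. Chat and Bche, both low, were highest in KO replicate 3 (0.0541 and 0.489 FPKM).

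Other genes of purine and glutamate signalling, also chosen after their values were seen, differed between KO libraries as Ptger3 and P2ry14 did. The ATP-gated channel gene P2rx1 was at 1.08, 0.519 and 0.755 FPKM in WT and 0.348, 3.76 and 10 in KO (limma adjusted p = 0.18). The glutaminase gene Gls2 was at 1.38, 1.33 and 1.32 FPKM in WT and 1.35, 6.47 and 14.1 in KO (adjusted p = 0.092 in limma). For both, KO replicate 1 was near or below WT. KO replicate 3 was 2.67 times KO replicate 2 for P2rx1 and 2.18 times for Gls2, and the acinar sum was 2.13 times. KO replicate 2 was 10.8 times KO replicate 1 for P2rx1 but 4.80 times for Gls2, and the acinar sum was 10.0 times. The part of acinar cells in these levels was not tested.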
